A study of Mus musculus with 36 samples.

Results

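The miR-379/410 cluster is a run of 36 miRNA hairpins on mouse chromosome 12, and it was examined here in small RNA libraries of kidneys from mice that develop polycystic kidney disease after loss of Pkd1 or Pkd2. Members were taken as every mature miRNA whose precursor is 1 of these 36 hairpins (mmu-mir-379, mmu-mir-411, mmu-mir-299a and so on to mmu-mir-410, written below without the species prefix), which gave 72 of the 1915 mature miRNAs counted. A mature miRNA was kept when it had at least 10 reads in at least 3 of the 36 libraries. This left 63 members from 35 hairpins, among 775 mature miRNAs of the whole table that passed. The kept member with the fewest libraries at 10 reads was miR-323-5p, with 3 such libraries, and the nearest of the 9 left out were miR-496a-5p and miR-654-3p, with 1 library each. No mature miRNA of the hairpin mir-654 passed.

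The kidneys came from C57BL/6 mice on postnatal day (P) 1, 3 and 7. In the Pkd1 model, Pkd1f/f mice served as wild type (WT) and Pkd1f/f:HoxB7-Cre mice as knockout (KO). In the Pkd2 model, Pkd2f/f mice were WT and Pkd2f/f:HoxB7-Cre mice were KO. The 12 groups of model, genotype and age held 3 libraries each. WT and KO mice of a model thus share the floxed alleles and differ by the transgene, whose HoxB7 promoter drives Cre in the ureteric bud and the collecting ducts it forms. Other segments of the nephron keep an unrecombined gene, while each library samples kidney tissue with all its cell types, so fewer cells of a type and less RNA per cell cannot be told apart. The labels do not say that the libraries of a group come from separate animals, so the p-values below measure the spread between these libraries, which may be partly technical.

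Pkd1 and Pkd2 encode polycystin-1 and polycystin-2, which act together in the primary cilium, and loss of either in a duct gives cysts. The miR-379/410 hairpins lie in the Dlk1-Dio3 interval, an imprinted region where the maternal chromosome makes the long noncoding RNAs Meg3, Rian and Mirg together with the miRNAs, and the paternal chromosome makes the protein-coding genes Dlk1, Rtl1 and Dio3. The cluster is found only in placental mammals, is known from embryo, placenta and brain, and is thought to be processed from 1 long precursor. Mef2 transcription factors drive it in neurons and in muscle, and in newborn mice it takes part in the metabolic switch to life outside the womb.

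In the GRCm38 build the 36 hairpins occupied chr12:109709060-109743795 on the plus strand, a span of 34.74 kb between Dlk1 (chr12:109452823-109463336) and Dio3 (chr12:110279068-110281097). The last 12 hairpins, from mir-382 to mir-410, lay within the annotated noncoding gene Mirg (chr12:109729764-109749460). Of these 12, 8 overlapped a Mirg exon and 4 were intronic. The first 24 hairpins, from mir-379 on, overlapped no annotated gene on their strand.

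Mature sequences were found in RefSeq (GRCm38.p6) for 68 of the 72 member names and for 59 of the 63 kept. The 8 members that carried most of the reads and miR-299a-3p, the member with the lowest p-value between genotypes, are shown first, 5′ to 3′, with the seed (bases 2 to 8, the part that mostly sets target choice) in capitals.
miR-411-5p: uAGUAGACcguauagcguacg
miR-541-5p: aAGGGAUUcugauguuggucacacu
miR-410-3p: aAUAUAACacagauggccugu
miR-381-3p: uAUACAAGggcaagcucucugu
miR-300-3p: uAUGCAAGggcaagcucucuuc
miR-409-3p: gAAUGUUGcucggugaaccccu
miR-379-5p: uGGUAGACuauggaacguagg
miR-411-3p: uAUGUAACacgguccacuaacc
miR-299a-3p: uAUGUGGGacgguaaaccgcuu

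The members hold many different seeds. The 59 kept members with a sequence held 3 pairs with the same seed, of which 1 partner each (miR-411-3p and miR-379-5p) stands above, and the other partners are shown here to let the pairs be compared.
miR-379-3p: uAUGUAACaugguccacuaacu
miR-1193-5p: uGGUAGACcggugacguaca
miR-376b-5p: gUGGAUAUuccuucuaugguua
miR-376c-5p: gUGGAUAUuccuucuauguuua
miR-411-3p and miR-379-3p shared the seed AUGUAAC, miR-379-5p and miR-1193-5p shared GGUAGAC, and miR-376b-5p and miR-376c-5p shared UGGAUAU. Counting from 1 at the 5′ end, miR-376b-5p and miR-376c-5p differed by G19U alone, miR-411-3p and miR-379-3p by C10U and C22U, and miR-381-3p and miR-300-3p by A4G, G21U and U22C. The A4G difference puts miR-381-3p and miR-300-3p in different seed families although 19 of their 22 bases are identical. Reads of such near-identical miRNAs can be assigned to the wrong partner, so the split of counts within these pairs is uncertain. Some abundant members share their seed with a miRNA from elsewhere in the genome, as miR-410-3p does with miR-344d-3p and miR-344e-3p, miR-411-5p with miR-7229-5p, and miR-299a-3p with miR-299b-3p.

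A uridine opened 24 of the 59 sequences (40.7%) and an adenosine 23 (39.0%), while a cytidine opened 3 (5.08%). Among the 590 other kept miRNAs with a sequence, uridine opened 39.0%, adenosine 26.4% and cytidine 24.4%. These shares are descriptions, since members with similar sequences are not independent.

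Libraries held 12569939 to 32663566 mature miRNA reads (median 24008082), and the cluster took 15147 to 423283 of them, or 0.0840% to 1.55% of a library. The 95% Wilson interval of this share was at most 0.00928 percentage points wide, which covers counting error only. Levels are given as CPM, reads per 1000000 reads after TMM scaling, a factor per library that sets most miRNAs level between libraries. miR-10b-5p with miR-10a-5p, both abundant in kidney, took between 41.1% and 74.1% of all reads in the Pkd2 P7 libraries, so an unscaled share of reads depends on them. The library labelled Pkd1 P1 WT replicate 1 stood apart, with 1786 CPM of 7 summed muscle miRNAs against 20.1 CPM in the lowest library of its group. It was also 1 of 6 libraries with at least 1 CPM of miR-202-5p, a miRNA of gonad and other endocrine tissue. The others were Pkd1 P3 KO replicates 2 and 3, Pkd1 P7 WT replicates 2 and 3, and Pkd2 P1 KO replicate 1. Without all 6, only 1 library remains in Pkd1 P3 KO and 1 in Pkd1 P7 WT. Results that rest on these libraries are given with and without them. Without Pkd1 and Pkd2 mRNA values, which were not analysed here, no check of the genotype labels against the targeted genes was made.

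A small number of members made up most of the cluster in the kidney. miR-411-5p carried 39.1% of all cluster reads, with a mean level of 1325 CPM and a range over libraries of 632 to 4307 CPM. miR-541-5p followed with 21% of the reads (mean 787 CPM, 258 to 2266 CPM), miR-410-3p with 12.9% (mean 458 CPM, 97.7 to 3568 CPM) and miR-381-3p with 9.01% (mean 324 CPM, 75.2 to 3250 CPM). The next were miR-300-3p (3.26%), miR-409-3p (2.44%), miR-379-5p (1.14%) and miR-411-3p (1.04%). Together these 8 took 89.9% of cluster reads, and the other 55 kept members shared the rest down to miR-323-5p at a mean of 0.0921 CPM.

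The same 4 members led in all 36 libraries, but their order varied. In 24 libraries it was that given above, in 5 miR-541-5p had more reads than miR-411-5p, and in 7 miR-410-3p had more than miR-541-5p. The top 4 members together made up 75.7% to 85.9% of the cluster in every library (median 82.3%). Within them, miR-411-5p ranged from 26.7% in Pkd1 P1 WT replicate 1 to 54.1% in Pkd1 P3 KO replicate 1, and miR-541-5p ranged from 10.3% to 46.3%, the highest being Pkd2 P3 WT replicate 1. The shares of miR-410-3p (4.21% to 22.2%) and miR-381-3p (3.32% to 20.2%) were both highest in Pkd1 P1 WT replicate 1, the library with the muscle miRNAs.

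Neighbouring hairpins of the run gave very different numbers of reads. mir-411, the second hairpin, gave 40.1% of cluster reads, although mir-379 just before it (chr12:109709060-109709125) gave 1.5% and mir-299a just after it (chr12:109710638-109710700) gave 0.759%. At the far end, mir-541 gave 21%, mir-409 gave 2.55%, mir-412 gave 0.0612% and mir-410 gave 12.9%. Across the 36 hairpins the reads had a Spearman rho of 0.095 with the order on the chromosome, a description over hairpins that share the same libraries. The 24 hairpins before Mirg gave 59.5% of the reads and the 12 within Mirg gave 40.5%.

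Each hairpin can give a 5p and a 3p mature miRNA, and 28 of the hairpins had both arms among the kept members. mir-541 was the most 5p-biased, with 728804 reads from the 5p arm and 139 from the 3p arm. mir-410 was the most 3p-biased, with 299 reads from the 5p arm and 447529 from the 3p arm. The most even by all reads pooled was mir-376a with 55.8% 5p, and its share ranged from 33.3% to 69.2% over libraries with at least 20 reads. mir-329 and mir-376b came next, both with 42.5% 5p, and ranged from 19.6% to 77.5% and from 17.8% to 67.8%. They were named after their values were seen. No arm share separated all libraries of the Pkd1 model from all of the Pkd2 model. For mir-411 the 5p share ran from 97.7% to 99.3% in the Pkd1 model and from 94.3% to 98.3% in the Pkd2 model.

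**Figure D1:**
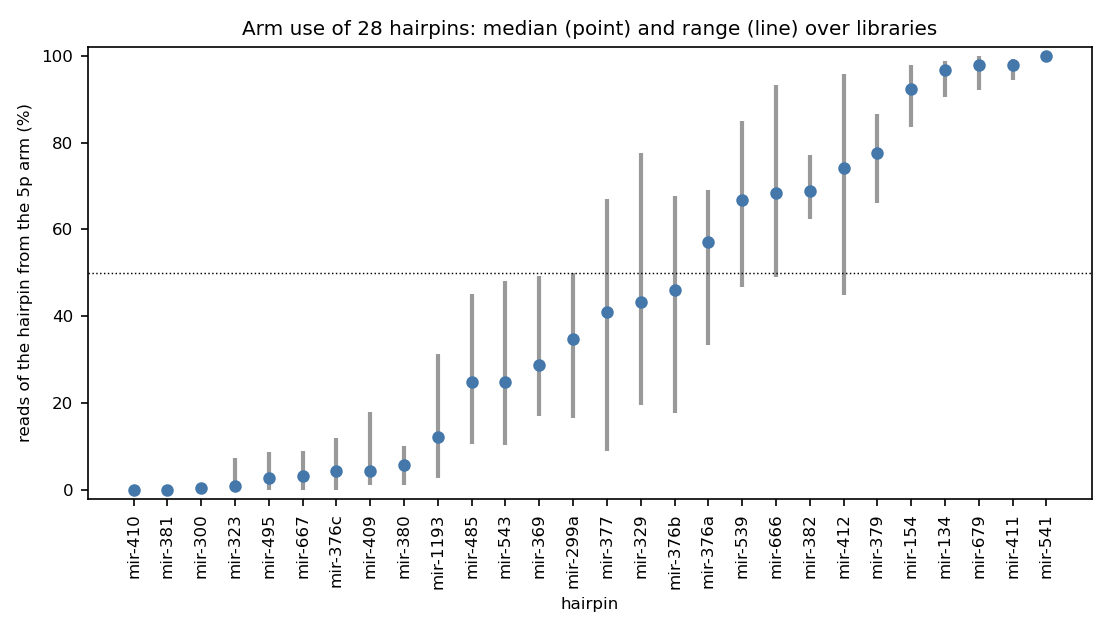
Share of the reads of a hairpin that came from its 5p arm (percent), for the 28 hairpins with both arms kept. Points are medians over libraries with at least 20 reads and lines run from the lowest to the highest library. The strongly biased hairpins at both ends (mir-541 and mir-410) hardly varied, while the more even, such as mir-376b (17.8% to 67.8%), varied widely.

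The first question was whether the cluster differed between KO and WT kidneys, and it did so in the Pkd2 model at P7. The summed level of the cluster was 1499, 1567 and 1745 CPM in the WT libraries and 3288, 2987 and 4364 CPM in the KO libraries. Every KO library was above every WT library, and the KO mean of 3546 ± 724 CPM over the WT mean of 1604 ± 127 CPM (SD, n = 3) gave a ratio of 2.21. With both miR-10 miRNAs taken out of the total, the cluster share was 0.309%, 0.283% and 0.330% in WT and 0.740%, 0.562% and 1.08% in KO, also with no overlap. As a share of all reads the groups overlapped, since KO replicate 2 at 0.146% lay among WT libraries at 0.104%, 0.147% and 0.189%. In that KO library the miR-10 pair took 74.1% of the reads.

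**Figure D2:**
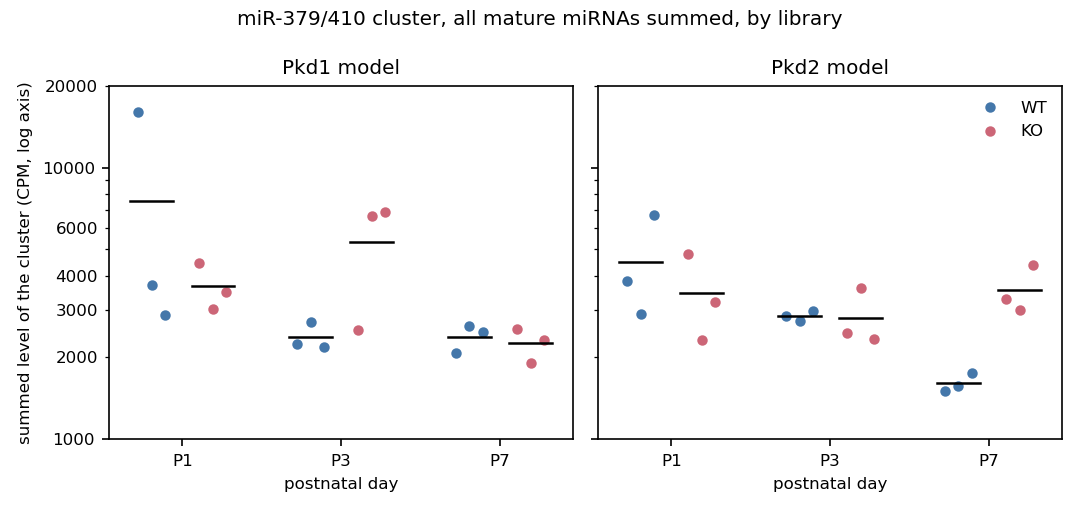
Summed level of the cluster in each library (CPM, log axis) by postnatal day, in the Pkd1 model (left) and the Pkd2 model (right). Points are libraries (WT blue, KO red) and black lines are group means of 3. In the Pkd2 model the P7 WT libraries (1499 to 1745 CPM) lie below all others, and 1 Pkd1 P1 WT library lies far above the rest at 16104 CPM.

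Of the 61 members tested in this comparison, 30 rose and none fell (edgeR quasi-likelihood test, Benjamini-Hochberg adjusted p under 0.05), where 8.98% of the 746 miRNAs tested rose. The median log2 fold change of the 61 members was 1.48 (range 0.39 to 2.63), beside 0.02 over all miRNAs tested, and all 61 values were above 0. An unadjusted p under 0.05 was found for 51 members, and for 29% of all miRNAs. In 44 members every KO library was above every WT library, a pattern seen in 13.5% of all miRNAs tested. Of the 30 called, 29 were among these 44, and miR-382-3p, named after its values were seen, was the exception.

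miR-299a-3p had the lowest p-value. Its level was 7.88, 7.81 and 7.69 CPM in the WT libraries and 17.9, 17.2 and 20.4 CPM in the KO libraries at P7. The WT libraries lay close together and well below the KO libraries, and the log2 fold change was 1.31 (SE 0.23, edgeR adjusted p = 0.00647). This is the 3p arm of the third hairpin, and its seed is not shared within the cluster.

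Among the 8 most abundant members, 4 passed the test and 4 did not. miR-541-5p was at 466, 316 and 298 CPM in WT and 558, 1326 and 1483 CPM in KO (log2 fold change 1.70, SE 0.46, edgeR adjusted p = 0.0250). miR-409-3p was at 24.53, 25.6 and 28.2 CPM in WT and 75.5, 53.1 and 91.0 CPM in KO (log2 fold change 1.55, SE 0.31, edgeR adjusted p = 0.0116). Both separated the groups, and in miR-541-5p KO replicate 1 stood much closer to WT than the other KO libraries did. miR-300-3p was at 32.8, 36.1 and 38.2 CPM in WT and 93.6, 60.2 and 115 CPM in KO (log2 fold change 1.39, SE 0.33, edgeR adjusted p = 0.0163). miR-411-3p was at 12.9, 14.4 and 16.4 CPM in WT and 34.2, 28.04 and 47.5 CPM in KO (log2 fold change 1.39, SE 0.35, edgeR adjusted p = 0.0175). In the last 3 of these, KO replicate 2 was the lowest KO library.

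The members of ranks 1, 3, 4 and 7 by abundance did not pass. miR-411-5p was at 632, 793 and 928 CPM in WT and 1556, 973 and 1532 CPM in KO (log2 fold change 0.85, SE 0.35, edgeR adjusted p = 0.111). miR-410-3p was at 97.7, 118 and 149 CPM in WT and 339, 160 and 313 CPM in KO (log2 fold change 1.22, SE 0.45, edgeR adjusted p = 0.0827). In both the groups did not overlap, but KO replicate 2 lay just above the highest WT library. For miR-381-3p, WT libraries at 75.2, 92.8 and 114 CPM overlapped KO libraries at 241, 99.2 and 239 CPM (log2 fold change 1.10, SE 0.40, edgeR adjusted p = 0.0814). For miR-379-5p, a miRNA known in liver as responsive to glucocorticoids, WT libraries at 16.1, 30.6 and 27.3 CPM overlapped KO libraries at 58.2, 26.4 and 62.9 CPM (log2 fold change 1.07, SE 0.36, edgeR adjusted p = 0.0642). KO replicate 2 was again the low KO library in both.

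**Figure D3:**
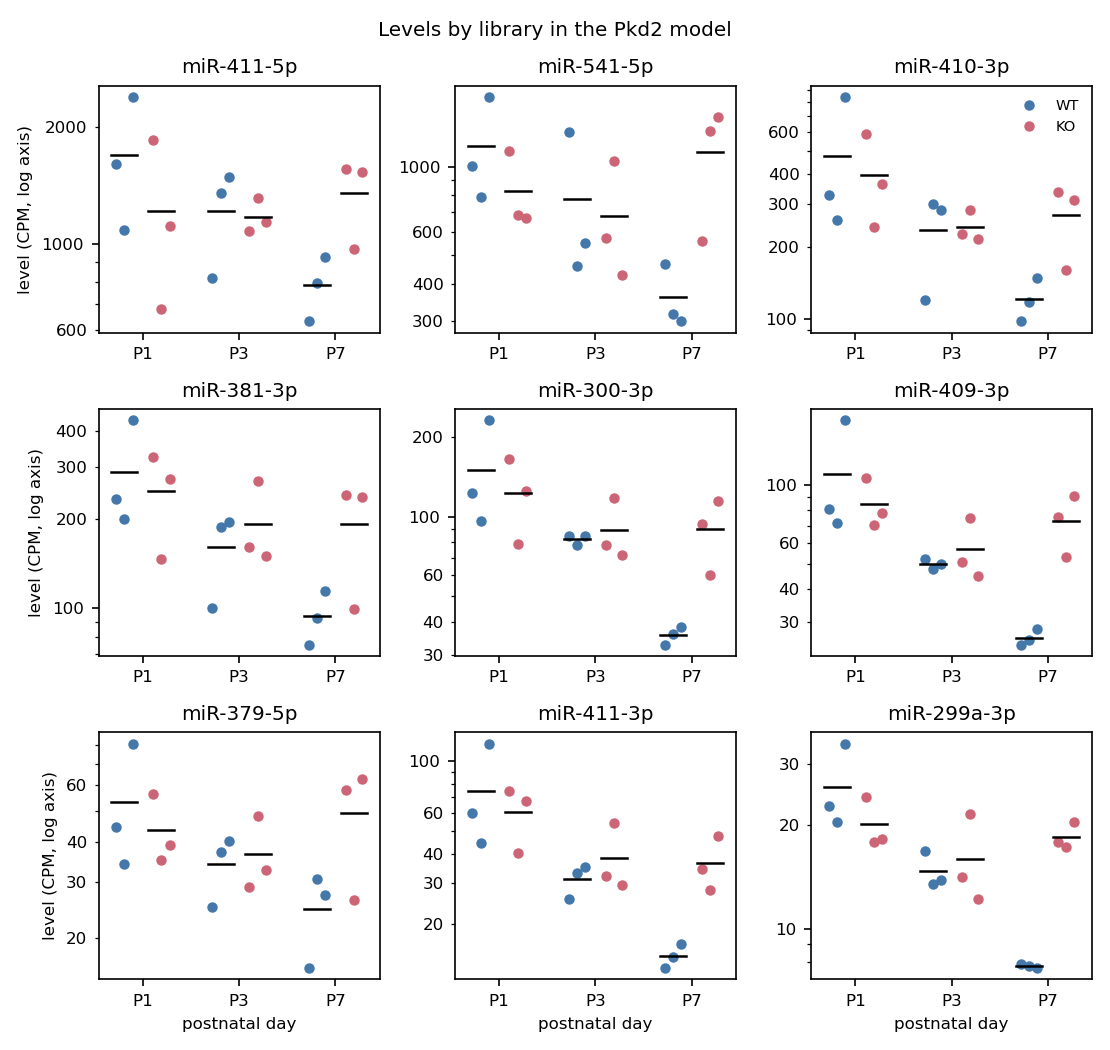
Levels (CPM, log axis) of the 8 most abundant members and miR-299a-3p in each Pkd2 model library by postnatal day. Points are libraries (WT blue, KO red) and black lines are group means of 3. At P7 the KO libraries of miR-299a-3p (17.2 to 20.4 CPM) sit far above WT (7.69 to 7.88 CPM), while those of miR-381-3p overlap.

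The largest fold changes among called members with separate groups came from scarce miRNAs. miR-154-3p was at 0.189, 0.388 and 0.148 CPM in WT and 1.49, 0.754 and 1.45 CPM in KO (log2 fold change 2.44, SE 0.69, edgeR adjusted p = 0.0277). miR-539-5p was at 0.189, 0.216 and 0.333 CPM in WT and 0.916, 0.603 and 1.77 CPM in KO (log2 fold change 2.20, SE 0.55, edgeR adjusted p = 0.0175). Both separated the groups, although the WT levels rest on 3, 9 and 4 reads for miR-154-3p and 3, 5 and 9 reads for miR-539-5p. miR-380-5p was at 0.441, 0.345 and 0.407 CPM in WT and 1.52, 0.980 and 1.94 CPM in KO (log2 fold change 1.99, SE 0.42, edgeR adjusted p = 0.0137). miR-543-3p was at 0.883, 0.776 and 0.962 CPM in WT and 2.55, 2.19 and 4.84 CPM in KO (log2 fold change 1.93, SE 0.46, edgeR adjusted p = 0.0163). No KO library of these 4 members fell within the WT range. miR-1193-5p was also called (edgeR adjusted p = 0.0204), but with 1, 1 and 2 reads in WT against 5, 5 and 15 in KO no fold is given.

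Members with a shared seed were at different levels. miR-379-3p, which has the seed of miR-411-3p, was at 3.91, 4.79 and 5.29 CPM in WT and 11.7, 7.84 and 13.3 CPM in KO at P7, with no overlap (log2 fold change 1.30, SE 0.34, edgeR adjusted p = 0.0204). miR-376b-5p was at 3.85, 4.31 and 4.14 CPM in WT and 8.99, 3.77 and 13.7 CPM in KO, with overlap through KO replicate 2 (log2 fold change 1.18, SE 0.43, edgeR adjusted p = 0.0811). miR-376c-5p, its near-identical partner, stayed under 1 CPM in all 6 libraries. The miR-376 hairpins are known for adenosine-to-inosine editing of their precursors, which counts per mature name do not show.

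Members from both ends of the run were among those called. The median log2 fold change was 1.56 over the tested members of the 24 hairpins before Mirg and 1.31 over those of the 12 within it. Over the 34 hairpins with a tested member, the Spearman rho between order on the chromosome and log2 fold change was -0.174, a description over hairpins that share the same 6 libraries.

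**Figure D4:**
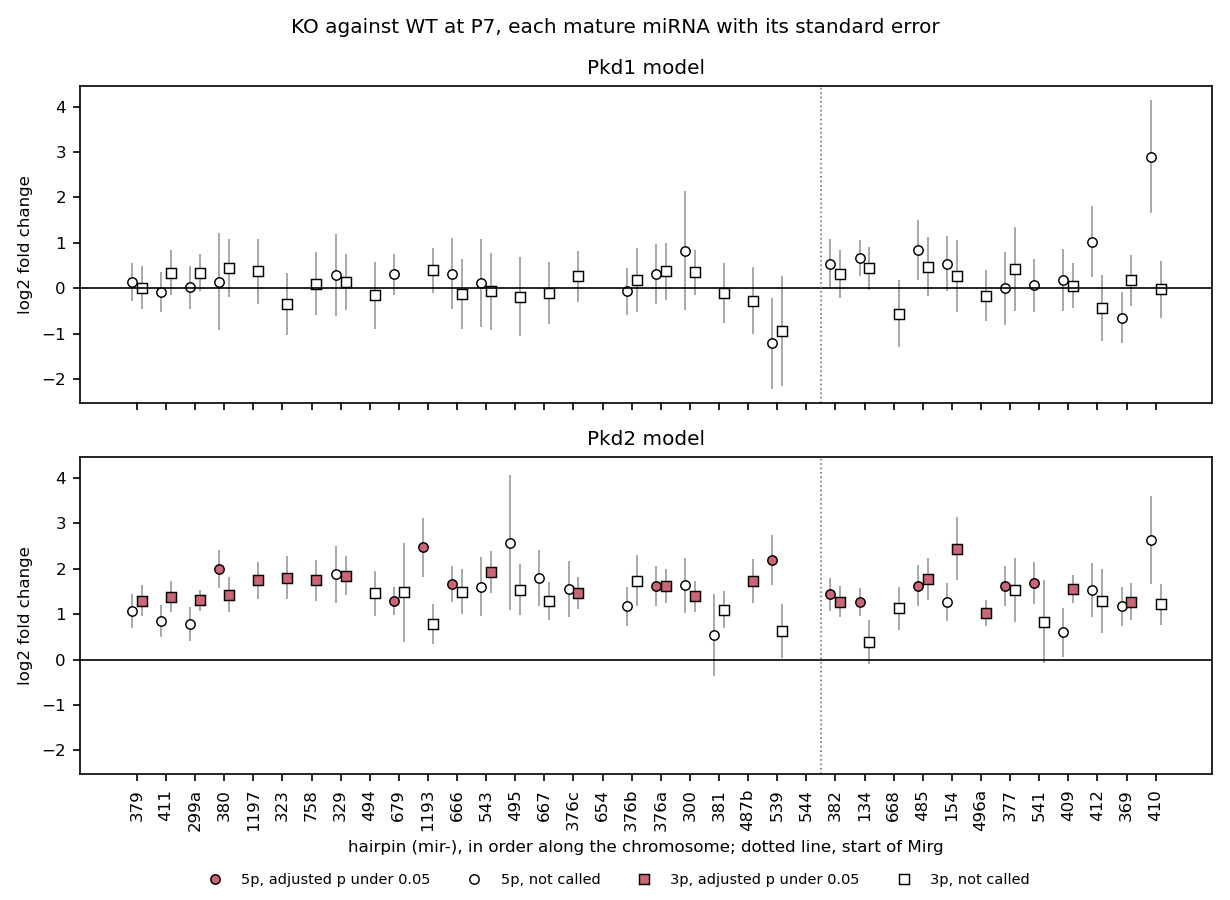
Log2 fold change of KO against WT at P7 for each tested member in the Pkd1 (top) and Pkd2 (bottom) models, with hairpins in their order on the chromosome. Circles are 5p and squares 3p members, bars are ± 1 SE, filled symbols passed the test (adjusted p under 0.05) and the dotted line marks the start of Mirg. In the Pkd2 model all 61 values are above 0 and 30 are filled, and in the Pkd1 model none of 54 is filled.

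The count of called members depended on single libraries. Leaving out WT replicate 1, 2 or 3 in turn left 12, 1 and 2 members called, and leaving out KO replicate 1, 2 or 3 left 30, 40 and 1. Counts over all miRNAs in these fits are not given, so a change particular to the members cannot be read from them. miR-299a-3p was the member called when WT replicate 2 or KO replicate 3 was left out, and with miR-409-3p 1 of the 2 called without WT replicate 3. The median log2 fold change stayed between 1.15 and 1.57 in these fits. With library totals in place of TMM factors 1 member was called (miR-541-5p), where 7 of all miRNAs were, beside 94 under TMM.

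Levels of other cell types' miRNAs were read in the same 6 libraries. Muscle miRNAs summed to 19.6 to 20.9 CPM in WT and 28.04 to 114 CPM in KO, with 0 of 6 tested called. Erythroid miRNAs summed to 2211 to 2680 CPM in WT and 3447 to 5535 CPM in KO, with 0 of 3 called. Both sums were higher in every KO library, and their part in the cluster's difference was not tested. Neural miRNAs (251 to 278 CPM in WT, 255 to 366 CPM in KO), endocrine miRNAs (68.0 to 106 and 82.9 to 126 CPM) and leukocyte miRNAs (353 to 465 and 425 to 567 CPM) overlapped between the groups with none called, and miR-202-5p was at most 0.06 CPM. Nephron tubule miRNAs summed to 14058 to 24232 CPM in WT and 5648 to 11970 CPM in KO, and 3 of 4 fell (miR-192-5p, miR-194-5p and miR-802-5p). Of the 7 epithelial and collecting duct miRNAs 4 rose (miR-141-3p, miR-200c-3p, miR-205-5p and miR-31-5p), while miR-200a-3p, miR-200b-3p and miR-429-3p were not called. The sum of all 7 overlapped between the groups, at 6194 to 7546 CPM in WT and 6390 to 7519 CPM in KO. Mesenchymal miRNAs summed to 6448 to 8369 CPM in WT and 4914 to 6515 CPM in KO with 0 of 4 called. Liver miRNAs (0.999 to 2.96 CPM in WT, 2.63 to 14.5 CPM in KO) and vascular miRNAs (44219 to 70364 and 42678 to 82179 CPM) overlapped with none called.

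At the earlier ages of the Pkd2 model no member was called. At P1 the summed cluster was at 3839, 2887 and 6719 CPM in WT and 4828, 2318 and 3202 CPM in KO, and at P3 at 2842, 2729 and 2968 CPM in WT and 2470, 3608 and 2335 CPM in KO. The groups overlapped at both ages. The edgeR test called 0 of 61 members at each age, as did DESeq2, and 0% of all miRNAs were called. An unadjusted p under 0.05 was found for 1 member at P1 (5.5% of all miRNAs) and for 1 at P3 (1.47%), and 1 member at P1 had every KO library below every WT library (9.12% of all miRNAs). The median log2 fold change of the members was -0.05 at P1 and 0.18 at P3.

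The second question was how the cluster changed with age. In Pkd2 WT kidneys it fell from P1 to P7, the summed level going from 4482 ± 1995 CPM to 1604 ± 127 CPM (SD, n = 3), a P1 to P7 ratio of 2.80 with no overlap. Of the 61 members tested, 52 fell and none rose (edgeR, adjusted p under 0.05), where 16.9% of all miRNAs tested fell, and 55 had an unadjusted p under 0.05, where 39.8% of all did. The median log2 fold change of P7 against P1 was -1.86 (range -3.64 to -0.15), beside -0.06 over all miRNAs tested. In 53 members every P7 library was below every P1 library, a pattern seen in 25.7% of all miRNAs. These WT P7 libraries are the same ones used in the P7 comparison of genotypes above, so both comparisons share their error.

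The 8 most abundant members all fell. miR-411-5p was at 1609, 1087 and 2387 CPM at P1 and 632, 793 and 928 CPM at P7 (log2 fold change -1.19, SE 0.35, edgeR adjusted p = 0.0186). miR-541-5p was at 1010, 787 and 1728 CPM at P1 and 466, 316 and 298 CPM at P7 (log2 fold change -1.77, SE 0.46, edgeR adjusted p = 0.00927). miR-410-3p was at 328, 259 and 837 CPM at P1 and 97.7, 118 and 149 CPM at P7 (log2 fold change -2.04, SE 0.46, edgeR adjusted p = 0.00403). In each, P1 WT replicate 3 was the highest of the 6 libraries, and no P7 library reached the P1 range. Log2 fold changes of the other 5 were -1.70 for miR-381-3p, -2.14 for miR-300-3p, -2.15 for miR-409-3p, -1.19 for miR-379-5p and -2.42 for miR-411-3p.

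miR-679-5p had the lowest p-value of the members with age. It was at 7.01, 7.52 and 12.3 CPM at P1 and 1.51, 1.51 and 2.07 CPM at P7 (log2 fold change -2.46, SE 0.31, edgeR adjusted p = 7.116e-05). Its RefSeq sequence, shown because this member was called with age in both genotypes of the Pkd2 model, is given here with the seed in capitals.
miR-679-5p: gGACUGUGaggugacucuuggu
miR-299a-3p was at 22.6, 20.4 and 34.3 CPM at P1 and 7.88, 7.81 and 7.69 CPM at P7 (log2 fold change -1.80, SE 0.23, edgeR adjusted p = 7.513e-05). miR-154-3p fell from 0.913, 0.859 and 3.98 CPM to 0.189, 0.388 and 0.148 CPM (log2 fold change -3.06, SE 0.67, edgeR adjusted p = 0.00334). miR-323-3p fell from 8.11, 8.33 and 21.7 CPM to 1.64, 1.90 and 2.48 CPM (log2 fold change -2.73, SE 0.48, edgeR adjusted p = 0.000747). All 4 separated the ages. The scarce miR-410-5p (5, 9 and 25 reads at P1 against 0, 1 and 1 at P7) and miR-495-5p (2, 8 and 18 against 0, 1 and 0) were also called. miR-679-3p (6, 10 and 19 reads against 0, 3 and 0) and miR-541-3p are among the 52, but they passed the count minimum only through the P1 WT libraries, so the filter itself favoured a fall. Without these 2, 50 of 59 members fell and the median was again -1.86.

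**Figure D5:**
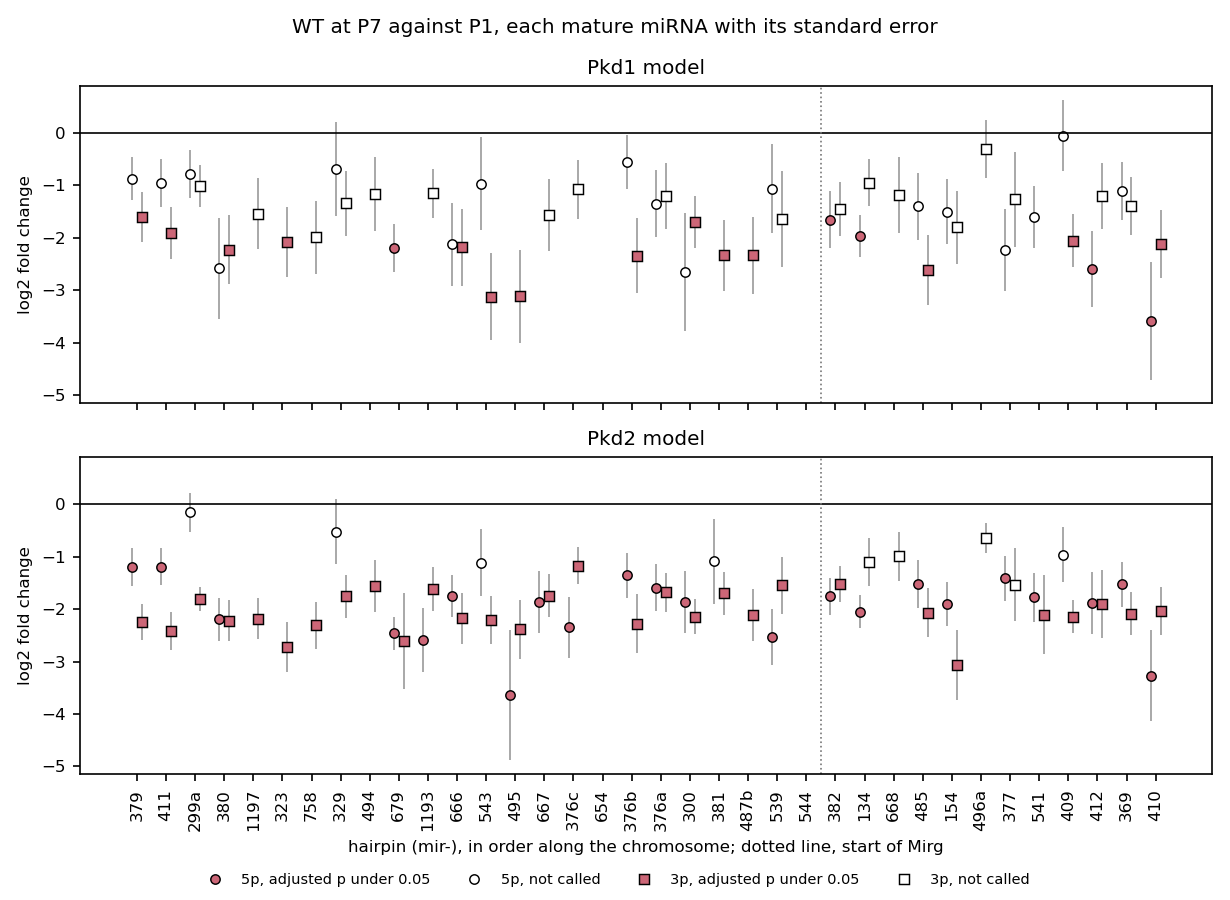
Log2 fold change of P7 against P1 in WT kidneys for each tested member in the Pkd1 (top) and Pkd2 (bottom) models, with hairpins in their order on the chromosome. Circles are 5p and squares 3p members, bars are ± 1 SE, filled symbols passed the test (adjusted p under 0.05) and the dotted line marks the start of Mirg. All values are below 0 in both models, with 52 of 61 filled in the Pkd2 model and 19 of 54 in the Pkd1 model.

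The steps from P1 to P3 and from P3 to P7 were not tested, and step counts are descriptions without the share over all miRNAs. The summed cluster in Pkd2 WT overlapped between P1 (2887 to 6719 CPM) and P3 (2729 to 2968 CPM). By group medians, 61 of the 63 kept members were lower at P3 than at P1 in Pkd2 WT kidneys, 59 were lower at P7 than at P3, and 57 were lower at both steps. Without P1 WT replicate 3, which held the highest level of 5 members over all libraries, 31 members were called and the median was -1.31. The count over all miRNAs in that fit is not given. Both liver miRNAs were called lower at P7, their sum being 9.50 to 289 CPM at P1, with the highest value in P1 WT replicate 3, and 0.999 to 2.96 CPM at P7, and their part in the result was not tested. Nephron tubule miRNAs went the other way, from 6177 to 7951 CPM at P1 to 14058 to 24232 CPM at P7, with 3 of 4 called higher. Epithelial (4318 to 4948 and 6194 to 7546 CPM), vascular (32224 to 38114 and 44219 to 70364 CPM) and mesenchymal sums (6116 to 6320 and 6448 to 8369 CPM) were also higher in every P7 library. Of these lists 4 epithelial and 1 vascular miRNAs were called higher, and 1 epithelial and 1 mesenchymal lower. Muscle, neural, endocrine, erythroid and leukocyte sums overlapped. By library totals without TMM factors, the median over all miRNAs with age moved to -0.78 in Pkd2 WT, and the members' median relative to it was -1.82, beside -1.81 under TMM.

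In Pkd2 KO kidneys the same comparison of ages gave smaller differences. The summed cluster was at 4828, 2318 and 3202 CPM at P1 and 3288, 2987 and 4364 CPM at P7, a P7 to P1 ratio of 1.03 with overlap. Of the 61 members 1 fell, miR-679-5p (9.08, 6.33 and 6.34 CPM at P1, 3.95, 3.54 and 4.49 CPM at P7, log2 fold change -0.92, SE 0.29, edgeR adjusted p = 0.0323), where 12.6% of all miRNAs fell. The median over members was -0.43, 10 had an unadjusted p under 0.05 (37.8% of all miRNAs), and in 7 every P7 library was below every P1 library, a pattern in 16.1% of all miRNAs. By group medians, 61 of 63 members were lower at P3 than at P1, as in WT, but 11 were lower at P7 than at P3. The median was -0.37 without the 3 members that passed the count minimum only through P1 KO. The call of miR-679-5p was lost without P1 KO replicate 1 or 3 or P7 KO replicate 1 or 2. The count depended on the scaling, and so did that over all 746 miRNAs, where 182 were called in either direction under TMM. By library totals alone 21 members were called (median -1.24), where 266 of all miRNAs were. By totals without the miR-10 pair 16 members were called (median -0.94), where 303 of all miRNAs were. By library totals the median over all miRNAs was -0.97, and the members' median relative to it was -0.27, beside -0.36 under TMM.

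To test the difference itself, the KO effect at P1 was subtracted from that at P7. Its median over the 61 members was 1.46, 60 values were above 0 and 38 had an unadjusted p under 0.05, where 16.9% of all miRNAs did. After adjustment 1 member was called, miR-299a-3p (difference 1.62 on the log2 scale, SE 0.32, edgeR adjusted p = 0.0278), where 0.402% of all miRNAs were called higher. Its levels were 24.1, 17.8 and 18.2 CPM in P1 KO, beside 22.6, 20.4 and 34.3 CPM in P1 WT and the separated P7 values above. That call was lost with library totals, with totals without the miR-10 pair and with the replicate number as a block. DESeq2 called 12 members in this test, and its count over all miRNAs is not given. For miR-541-5p the difference was 2.14 (SE 0.64, edgeR adjusted p = 0.122), and for miR-411-5p it was 1.27 (SE 0.49, edgeR adjusted p = 0.221).

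In the Pkd1 model the number of members called with age in WT depended on single libraries. The summed cluster was at 16104, 3700 and 2868 CPM in P1 WT and 2080, 2605 and 2477 CPM in P7 WT, with no overlap. Of the 54 members tested 19 fell and none rose (edgeR, adjusted p under 0.05), where 11.2% of all miRNAs fell, and the median log2 fold change was -1.58. An unadjusted p under 0.05 was found for 35 members and 36.3% of all miRNAs. In 19 members every P7 library was below every P1 library, beside 18.7% of all miRNAs. By group medians 53 of 63 kept members were lower at P3 than at P1 in Pkd1 WT kidneys. At the next step 29 were lower at P7 than at P3, and 23 were lower at both steps, beside 57 in Pkd2 WT. Without P1 WT replicate 1, 2 members were called, miR-134-5p and miR-679-5p, and the median was -0.38. miR-134-5p, named here after its values were seen, is known for repressing Limk1 at neuronal synapses. With P1 WT replicate 3 left out 30 were called, and with P7 WT replicate 1, 2 or 3 left out in turn 4, 7 and 2. Library totals gave 40 members called, where 136 of all 706 miRNAs were called in either direction, beside 152 under TMM. A fit of only the compared libraries gave 1. Counts over all miRNAs in that fit and in those with a library left out are not given.

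That library held the highest level of 50 of the 63 members. In it miR-411-5p reached 4307 CPM against 999 and 853 CPM in the other P1 WT libraries, miR-410-3p reached 3568 CPM against 511 and 378 CPM, and miR-381-3p reached 3250 CPM against 351 and 260 CPM. As a fold over the other P1 WT libraries, the excess was larger for miR-410-3p and miR-381-3p than for miR-411-5p. All 6 tested muscle miRNAs were called lower at P7 in this comparison, their sum being 20.1 to 1786 CPM at P1 and 38.0 to 60.1 CPM at P7, and their part in the result was not tested.

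The members with the largest called changes in Pkd1 WT carried the same mark of this library. miR-543-3p was at 37.2, 5.94 and 3.46 CPM at P1 and 1.92, 1.70 and 1.42 CPM at P7 (log2 fold change -3.12, SE 0.83, edgeR adjusted p = 0.0185). miR-495-3p was at 100.1, 11.8 and 6.93 CPM at P1 and 3.71, 6.82 and 2.41 CPM at P7 (log2 fold change -3.12, SE 0.89, edgeR adjusted p = 0.0249). miR-485-3p was at 64.6, 7.75 and 9.58 CPM at P1 and 3.71, 4.34 and 4.52 CPM at P7 (log2 fold change -2.61, SE 0.67, edgeR adjusted p = 0.0156). In all 3 the ages were separate, with replicate 1 several times above the other P1 libraries. miR-412-5p was at 6.35, 1.82 and 1.13 CPM at P1 and 0.275, 0.620 and 0.557 CPM at P7 (log2 fold change -2.60, SE 0.73, edgeR adjusted p = 0.0231). miR-410-5p was called too, on 38, 7 and 3 reads at P1 against 0, 0 and 2 at P7.

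Pkd1 KO kidneys had 1 member called with age. miR-323-3p fell from 15.6, 4.52 and 7.32 CPM at P1 to 2.06, 1.70 and 2.35 CPM at P7 (log2 fold change -2.08, SE 0.67, edgeR adjusted p = 0.0420), where 7.08% of all miRNAs fell. This call was lost without P1 KO replicate 1 or 3 and without each P7 KO library in turn. Library totals alone gave 15 members called, where 192 of all 706 miRNAs were called in either direction, beside 121 under TMM. Totals without the miR-10 pair gave 4, where 183 of all miRNAs were called. A fit of only the compared libraries gave 16, and its count over all miRNAs is not given. By library totals the median over all miRNAs was -1.16, and the members' median relative to it was -0.60, beside -0.54 under TMM. In 20 members every P7 library was below every P1 library, a pattern in 24.9% of all miRNAs, and in 1 every P7 library was above (22.2%). The median over members was -0.59, and 3 had an unadjusted p under 0.05, beside 31.6% of all miRNAs. By group medians 20 of 63 members were lower at P3 than at P1 and 56 were lower at P7 than at P3. The summed cluster at P3 was 2522, 6632 and 6880 CPM in KO, beside 4449, 3018 and 3491 CPM at P1.

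The edgeR test called no member between genotypes in the Pkd1 model. At P1 the edgeR test called 0 of 54 members (0% of all miRNAs), 6 had an unadjusted p under 0.05 (8.36% of all) and DESeq2 called 1, miR-543-3p. In 4 members every KO library was below every WT library, as in 10.5% of all miRNAs. The median was -0.90, and without P1 WT replicate 1 it turned to 0.38. At P3 the edgeR test called 0 of 54 (0% of all miRNAs), 16 had an unadjusted p under 0.05 (9.07% of all) and DESeq2 called 0. The median was 1.10, and in 11 members every KO library was above every WT library, where 6.23% of all miRNAs were. The high level came from KO replicates 2 and 3, which are among the 6 libraries with miR-202-5p. Without those libraries 1 P3 KO library was left, and the median was -0.29. Endocrine miRNAs summed to 45.3 to 523 CPM in P3 KO and 21.4 to 29.2 CPM in P3 WT, erythroid miRNAs to 1573 to 4685 and 1386 to 1546 CPM, and leukocyte miRNAs to 315 to 371 and 210 to 305 CPM. All 3 sums were higher in every KO library, with 0 miRNAs of these lists called, and their part in the result was not tested. Muscle, liver, neural, vascular, mesenchymal, epithelial and tubule sums overlapped.

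At P7 the Pkd1 groups lay together. The summed cluster was at 2080, 2605 and 2477 CPM in WT and 2547, 1912 and 2322 CPM in KO. The edgeR test called 0 of 54 members, where 0.425% of all miRNAs were called, 1 member had an unadjusted p under 0.05 (10.2% of all miRNAs) and DESeq2 called 0. In 2 members every KO library was above every WT library, beside 6.23% of all miRNAs. The median log2 fold change was 0.16, with 36 values above 0 and 18 below. Over the 54 members the values ranged from -1.21 to 2.89. Of the members given next, the first 2 changed sign when single libraries were left out. miR-411-5p differed by -0.08 (SE 0.45, edgeR adjusted p = 0.984), miR-541-5p by 0.06 (SE 0.58, edgeR adjusted p = 0.984) and miR-299a-3p by 0.34 (SE 0.40, edgeR adjusted p = 0.893). The change of the KO effect from P1 to P7 had a median of 1.04 in this model (-0.24 without P1 WT replicate 1), with 2 of 54 members at an unadjusted p under 0.05 (12% of all miRNAs) and 0 called by edgeR or DESeq2, where 0.142% of all miRNAs were called.

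Whether the KO effect at P7 differed between the models was tested over all 36 libraries. The median difference, Pkd2 minus Pkd1, was 1.30 on the log2 scale, with 60 of 63 values above 0. The edgeR test called 0 of 63 members, where 0.387% of all miRNAs were called, 10 had an unadjusted p under 0.05 (12% of all) and DESeq2 called 0. For miR-299a-3p the difference was 0.96 (SE 0.48, edgeR adjusted p = 0.423) and for miR-541-5p it was 1.66 (SE 0.78, edgeR adjusted p = 0.402). The rise in the Pkd2 model is therefore not shown to be particular to it.

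The study used another criterion for miRNAs, a change of at least 2-fold and p under 0.05 before adjustment. It merged lists from edgeR and DESeq2 and compared WT with KO at each age. Here that criterion was applied to the edgeR values alone, also in comparisons of ages and models, and gave more members. It took in 50 members as higher in Pkd2 KO at P7 (15.7% of all miRNAs), 54 as lower with age in Pkd2 WT (14.9%) and 38 as higher in the Pkd2 change of KO effect from P1 to P7 (9.65%). In Pkd2 KO with age it took in 1 as higher (9.12%) and 1 as lower (7.1%). In the Pkd1 model it took in 35 as lower with age in WT (15.2%), 2 as lower with age in KO (8.36%), 6 as lower in KO at P1 (3.82%), 15 as higher at P3 (5.95%), 1 as higher at P7 (1.98%) and 2 as higher in the change of KO effect (4.67%). Between the models it took in 10 (5.81%).

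The other miRNAs of the same imprinted interval, from the Rtl1 and Rian region upstream, were read in the same comparisons. Of 34 mature miRNAs from 18 hairpins there, 25 passed the count minimum. At P7 in the Pkd2 model 11 of 24 tested rose in KO (median log2 fold change 1.41), where 8.98% of all miRNAs rose. The summed level of this region overlapped there, with KO replicate 2 at 2547 CPM and WT replicate 3 at 2655 CPM. With age in Pkd2 WT 18 of 24 fell (median -1.85), where 16.9% of all miRNAs fell. With age in Pkd1 WT 11 of 25 fell (median -1.94), where 11.2% of all miRNAs fell. Of the imprinted miRNAs of other loci, miR-675 (H19), miR-483 (Igf2) and miR-335 (Mest), 1 was called in Pkd2 KO at P7, miR-335-3p, which fell by 0.50 on the log2 scale. With age in Pkd2 WT both arms of miR-675 and of miR-483 and miR-335-3p were called lower. Their log2 fold changes ran from -2.87 (miR-483-3p) to -1.52 (miR-335-3p), and miR-335-5p was not called. The same miRNAs were called lower with age in Pkd2 KO. In Pkd1 WT both arms of miR-483 and miR-335-3p were called lower. A fall with age was thus not confined to the Dlk1-Dio3 interval.

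The members also varied together from library to library. Over the 18 libraries of the Pkd2 model, the Spearman rho of a member with the sum of the other members had a median of 0.746 (0.304 to 0.953), beside a median of -0.0609 for the other kept miRNAs. In the Pkd1 model the median was 0.698 (-0.0114 to 0.932), beside -0.0114. For the 25 kept miRNAs of the Rtl1 region, the medians were higher than those of the members, at 0.798 (Pkd2) and 0.787 (Pkd1). Their values ran from 0.356 to 0.913 for Pkd2 and from 0.263 to 0.92 for Pkd1, within the ranges of the members. A close relation to the cluster sum was thus not confined to the members. These values describe the pattern only, since the libraries share their groups and their depth.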

How the data were processed

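Small RNA of mouse kidney was sequenced in 36 libraries. The authors trimmed adaptors, kept reads over 17 bases and quantified them with miRDeep2 against miRBase 21 and the mm10 genome, and the deposited values are raw read counts per mature miRNA and precursor. The submitters' processing notes also list CASAVA 1.8.2 and HTSeq. Tests used edgeR 4.0.16 in R 4.3.3: TMM factors, the filter of 10 reads in 3 libraries within the fit, and a quasi-likelihood F-test over all miRNAs of a model's 18 libraries (706 in Pkd1, 746 in Pkd2) or of all 36 (775), with Benjamini-Hochberg adjustment and a threshold of 0.05. A standard error is the size of the log2 fold change divided by the square root of F. Levels in CPM used TMM factors over 36 libraries. DESeq2 1.42.0 was an alternative.

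The members, lists and tests were chosen with earlier results of these data known. Members were named when among the 8 most abundant, among the 5 largest called changes with separate groups in a comparison or 2 called in a test of differences, or for a shared seed, the filter's edge or arm use. Other names are marked as chosen after their values were seen. The edgeR test was checked on simulated counts of 1 comparison, Pkd2 KO against WT at P7. There 45.9% of true log2 changes of size 1 and 86.9% of size 2 were called, and 3.68% of calls were false. A member that was not called may therefore still differ. No such check was made in the Pkd1 model.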

Additional observations from a re-analysis of the deposited data

Results flagged for a closer look

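In the Pkd2 model, the KO effect on miR-299a-3p differed between ages. At P1 the log2 fold change of KO against WT was -0.31 (SE 0.22, edgeR adjusted p = 0.972), at P7 it was 1.31, and the difference was 1.62 (edgeR quasi-likelihood interaction, adjusted p = 0.0278). The call was lost when P1 WT replicate 3, P1 KO replicate 2 or 3, any of the P7 WT replicates, or P7 KO replicate 3 was left out. It was also lost with library totals, with totals without miR-10a-5p and miR-10b-5p, and with the replicate number as a block.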

How the results depend on the processing

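Counts over all miRNAs are not given here for fits with a library left out, by DESeq2 or of only the compared libraries. With 3 libraries a group, depth limited only the scarce members, and the number of members called moved with the libraries left out. These counts ranged from 1 to 40 for Pkd2 KO against WT at P7, from 31 to 52 for Pkd2 WT with age, from 2 to 30 for Pkd1 WT with age, from 0 to 1 for Pkd1 KO with age, from 0 to 4 for Pkd2 KO with age and from 0 to 3 for the Pkd2 change of KO effect from P1 to P7, and were 0 in every such fit of the other comparisons. By the study's cut-offs of a 2-fold change at an unadjusted p under 0.05, applied here to the edgeR values alone, 6 members were called at P1, 15 at P3 and 1 at P7 between Pkd1 genotypes, 35 in Pkd1 WT and 2 in Pkd1 KO with age, 2 in the Pkd1 change of KO effect, 50 in Pkd2 KO against WT at P7, 2 in Pkd2 KO with age, 38 in the Pkd2 change of KO effect and 10 between models. DESeq2 called 1 for Pkd1 KO against WT at P1 and 12 in the Pkd2 change of KO effect. Library totals alone gave 40 in Pkd1 WT with age, 15 in Pkd1 KO with age, 1 in Pkd2 KO against WT at P7, 21 in Pkd2 KO with age and 0 in the Pkd2 change of KO effect, and totals without miR-10a-5p and miR-10b-5p gave 40, 4 and 16 in Pkd1 WT, Pkd1 KO and Pkd2 KO with age and 0 in the Pkd2 change. Calls over all miRNAs, in the same order, were 136, 192, 7, 266 and 0 by library totals. They were 248, 183, 303 and 1 by totals without the miR-10 pair. With only the compared libraries in the fit, 1 was called in Pkd1 WT, 16 in Pkd1 KO and 0 in Pkd2 KO with age. Without a filter the Pkd2 change of KO effect had 2. Without the libraries with miR-202-5p, an alternative chosen after the data were seen, 0 were called in Pkd2 KO with age and 3 in the Pkd2 change of KO effect. In Pkd1 WT with age this alternative left 1 P7 library, and the median was -0.47. The cause of these differences was not tested. Same-numbered libraries of WT and KO had correlations of -0.489 to 0.456, with not all 3 above 0.1 in any comparison, so the numbers are not shown to pair them. With the replicate number as a block, 7 members were called in Pkd1 WT and 0 in Pkd1 KO with age and 0 in the Pkd2 change of KO effect, while 30 were called in Pkd2 KO against WT at P7, 27 of them shared. Of the alternative fold changes of members whose value is printed, 487 kept direction and side of the threshold, 97 kept direction and lost the threshold, 11 gained it and 6 changed sign. The sign changes were in Pkd1 KO against WT at P7, where no value was called: miR-411-5p went to 0.0356 without the libraries with miR-202-5p (1 WT library left) and ranged from -0.15 to 0.0381 with single libraries left out, and miR-541-5p went to -0.0761 and ranged from -0.27 to 0.34. Over all named members and comparisons, 282 of 5013 alternative values changed sign, and the median over members changed sign under some alternative in each comparison of genotypes at 1 age except Pkd2 at P7, reaching 0.38 at Pkd1 P1 and -0.29 at Pkd1 P3 (with 1 KO library left), and in the Pkd1 change of KO effect.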
